A study of Drosophila melanogaster with 4 samples.

Results

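Chromatin immunoprecipitation followed by sequencing (ChIP-seq) was used to map monomethylated lysine 36 of histone H3, H3K36me1, in heads of adult Drosophila melanogaster, and the regions described here are the enriched clusters of chromosome arm 3R that are narrower than 20 kb. They were chosen by arm and width alone from the combined list, in which the authors gave one set of clusters for the set of replicates, and number 1595 of the 1679 clusters on the arm and of 7567 in the series. The flies were of the Oregon-R-modENCODE strain, genotype wild type, a mixed adult population kept in population cages, with heads separated from bodies by sieving. Neither treatment nor mutant was part of the design, so there is a single group of 2 ChIP samples, each with its own cluster list, beside 2 input samples. Nothing in the labels says that the 2 ChIP samples came from separate collections, so the spread between them may be technical. Depth is unknown, since the lists hold a position, a width and a score for each cluster and no read counts.

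Methylation of this lysine is carried along the bodies of transcribed genes. In Drosophila the enzyme Set2 places the trimethyl form during elongation by RNA polymerase, while NSD and Ash1 are linked to the lower methyl states. A head holds brain, eye, muscle, fat body and cuticle-forming cells, and a cluster list from whole heads sums over all of them. A cluster that is absent can therefore reflect few cells with the mark or little mark per cell, which cannot be told apart.

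The width of the short clusters had a median of 2181 bases, with quartiles of 1400 and 4431 bases and extremes of 1001 and 19952 bases. They covered 5.96 Mb, which was 21.3% of the arm and 66.9% of all cluster bases on it, at 57.2 clusters per Mb. The score given by the authors, whose unit is not stated, had a median of 0.418 against 1.04 for the 84 wider clusters of the arm. Clusters under 2 kb made up 45.4% of the number, while the 134 of 10 kb or more held 30.5% of the bases. The 5 widest clusters inside the limit included 3R:2245193-2265144 of 19.952 kb over gpp, which encodes the histone H3 lysine methyltransferase of the Dot1 family, 3R:6093260-6112184 of 18.925 kb over the kinase gene Nuak, and 3R:4738681-4757469 of 18.789 kb over pyd, a scaffold gene of cell junctions. The other 2 of the 5 widest were 3R:27136941-27155788 of 18.848 kb over CG34347, and 3R:26572278-26591365 of 19.088 kb over no protein-coding gene. Outside the limit, 3R:21452646-21472707 of 20.062 kb lay over Ssadh and jigr1. Both 3R:9540916-9561000 of 20.085 kb and 3R:9561272-9581787 of 20.516 kb lay over kmr, the former also over Ubc87F. The remaining 2 of the 5 narrowest were 3R:4282808-4303307 of 20.5 kb over CG45263 and 3R:27791209-27811823 of 20.615 kb over heph and CG2003.

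Wider clusters were found in both replicate lists more often than narrow ones. A cluster counted as found in a list when they had 1 base or more in common. Of the 1595 clusters, 644 (40.4%) were found in both replicate lists, 180 (11.3%) with replicate 1 only, 155 (9.72%) with replicate 2 only, and 616 (38.6%) with neither. The 644 clusters found in both lists held 4.28 Mb of the 5.96 Mb, so the unsupported clusters were many but small, with a median width of 1316 bases against 5277 bases. Among 724 clusters under 2 kb, 24 (3.31%) were in both lists and 534 (73.8%) in neither. Among 531 clusters of 2 to 5 kb, 285 (53.7%) were in both and 82 (15.4%) in neither. Of 206 clusters of 5 to 10 kb, 201 (97.6%) were in both, and all 134 of 10 to 20 kb were. The narrowest cluster on the arm had 1001 bases in the combined list, but 1307 and 1301 bases in the replicate lists. A wider cluster also offers more bases to be shared. Neither difference was corrected for.

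**Figure D1:**
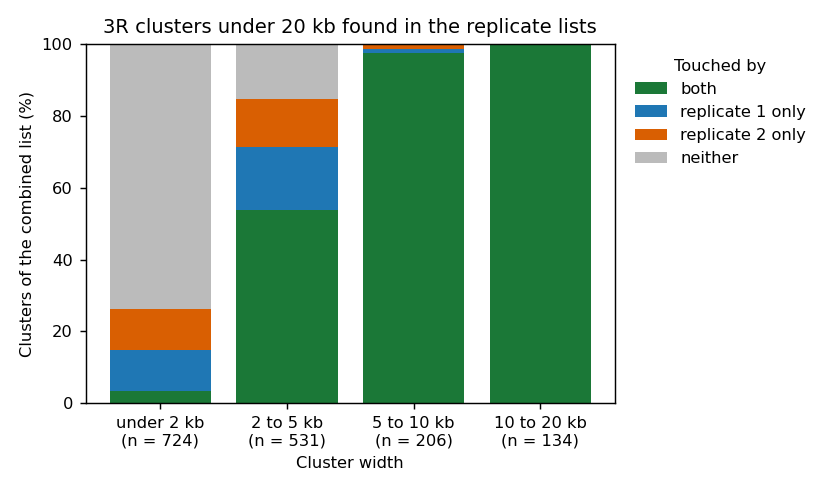
Percent of the 3R clusters under 20 kb in each width class (x axis) found in both replicate lists, in replicate 1 only, in replicate 2 only or in neither (y axis, percent of the class). The share in both lists goes from 3.31% under 2 kb to 100% at 10 to 20 kb.

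The boundaries were close where one cluster matched one. In 431 of the 644 clusters each replicate list gave a single partner, and the 862 ends of these partners differed between the lists by a median of 207.5 bases, with 49.0% within 200 bases and 28 ends more than 2000 bases apart. The combined cluster was the wider, at a median of 3936 bases while the partners had medians of 2967 and 2882 bases. Some combined clusters matched several replicate clusters. Of the 644, 503 (78.1%) met a single cluster in replicate 1 and 494 (76.7%) in replicate 2, and the most met by any was 5. From the other side, 896 of 1129 short clusters of replicate 1 (79.4%) were found in replicate 2, and 958 of 1136 of replicate 2 (84.3%) in replicate 1. The clusters not found again were narrow, with median widths of 1592 and 1498 bases. Almost all replicate clusters lay in the combined list: 2 of replicate 1 and 1 of replicate 2 touched no combined cluster.

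Short clusters lay mostly in gene bodies. Gene bodies held 86.9% of their bases, against 73.2% of the arm, and 13.1% lay outside genes, against 26.8% of the arm. In the replicate lists 90.1% ± 0.0424 (SD, n = 2) of the bases were in genes. Long genes took the larger part, with 72.9% of the bases in genes of 10 kb or longer, which occupied 48.0% of the arm. The clusters of 20 kb or wider had 91.7% in gene bodies and 90.1% in genes of 10 kb or longer. Clusters in neither replicate list differed from those in both, with 78.8% against 89.0% in gene bodies and 55.0% against 78.7% in long genes. By kind, 960 clusters (60.2%) lay within a gene body and held no gene end, 178 (11.2%) lay within one and held an end of another gene, 280 (17.6%) crossed a gene end and 177 (11.1%) lay outside genes. In the replicate lists the within-gene kind without an end took 68.3% ± 0.486 (SD, n = 2) and the clusters outside genes took 7.60% ± 1.78 (SD, n = 2). Not one of the 134 clusters of 10 to 20 kb lay outside genes, against 111 of 724 (15.3%) under 2 kb. The gene table used here gives no strand and no exons, so the ends of a gene are not told apart as start or stop, and introns, exons and promoters are not separated.

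Gene ends were the emptiest positions. Of positions at the end of a protein-coding gene of 10 to 20 kb (206 genes), 3.40% lay in a short cluster, against 18.4% at 1 kb inside and 35.0% at 5 kb inside. Outside the gene the share was 10.7% at 2 kb. In the replicate lists the same positions gave 2.06% ± 0.172, 13.1% ± 0.343 and 27.3% ± 1.89 (SD, n = 2). The 239 genes of 20 kb or longer gave 5.23% at the end, 20.3% at 1 kb inside and 34.7% at 5 kb inside, and 17.4% at 2 kb outside. In the 350 genes of 5 to 10 kb the fall at the end was 5.00% against 17.6% at 2 kb inside and 12.4% at 2 kb outside. Over all members, 12.4% of bases lay within 500 bases of a gene end, against 20.6% of the arm. When each gene was cut into 10 equal stretches, short clusters covered 15.5% of the outermost and 42.1% of the middle stretches of genes of 10 to 20 kb. In genes of 20 kb or longer these were 25.6% and 34.4%, with the wider clusters left out. Counting clusters of any width, positions in these longest genes gave 8.16% at the end, 31.4% at 1 kb inside and 50.6% at 5 kb inside. In genes of 10 to 20 kb the share at 5 kb inside was then 35.9%. Clusters of any width lay mostly to one side of the middle in some genes. Of 357 genes of 10 kb or longer with a cluster, 105 (29.4%) had at least 80% of their cluster bases on one side. Of these, 60 had clusters in both replicate lists, and in all 60 the fuller side was the same in both. These genes were selected on the combined list, which draws on the same replicates, so the match is a description.

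**Figure D2:**
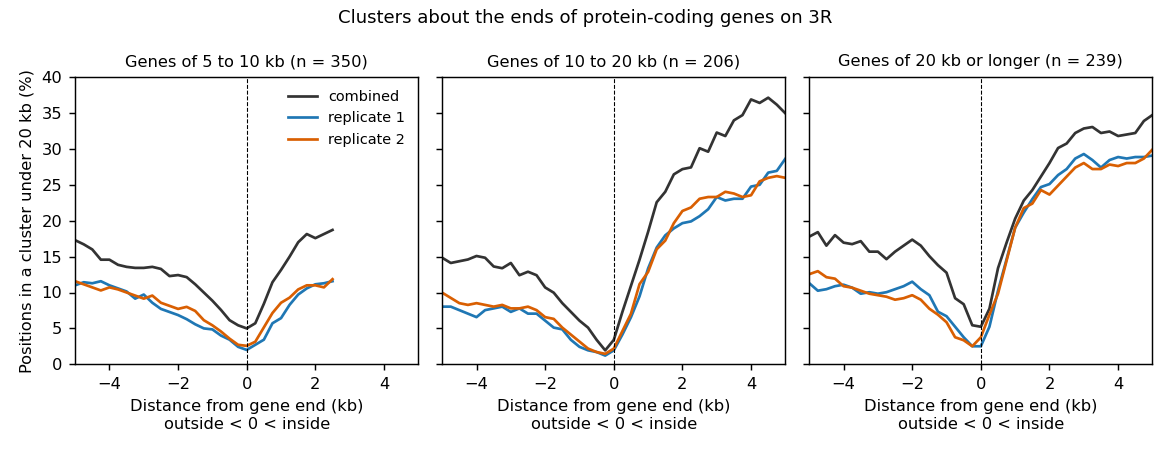
Percent of positions in a cluster under 20 kb (y axis) against distance from the end of a protein-coding gene (x axis, kb, negative outside the gene and positive inside), in 3 classes of gene length, with a line each for the combined list and the 2 replicate lists. Each line is lowest at or just outside the gene end, and in genes of 10 to 20 kb the combined list goes from 3.40% at the end to 35.0% at 5 kb inside.

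Genes touched were counted over all 4206 genes of the arm, of which 1116 (26.5%) shared at least 1 base with a short cluster, and over 3387 protein-coding genes, of which 906 (26.7%) did. Median length was 5349.5 bases for genes touched and 1841.5 bases for the others. The share touched was 17.1% of 561 protein-coding genes under 1 kb, 16.1% of 1060 of 1 to 2 kb, 18.0% of 971 of 2 to 5 kb, 36.9% of 350 of 5 to 10 kb, 69.4% of 206 of 10 to 20 kb, 76.5% of 179 of 20 to 50 kb and 91.7% of 60 of 50 kb or longer. The replicate lists gave lower shares in each class, from 8.38% ± 0.504 under 1 kb to 85.8% ± 1.18 (SD, n = 2) at 50 kb or longer. A longer gene offers more bases to be touched, which was not corrected for. Genes under 5 kb were touched more often inside a long gene: 93 of 186 (50.0%) that lay inside a gene of 10 kb or longer were touched, against 334 of 2328 (14.3%) that lay in no other gene. A nested gene and its host share the bases, and the cluster there cannot be given to one of them. Of 906 genes touched, 653 held 1 short cluster, 115 held 2, 47 held 3 and 91 held 4 or more.

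**Figure D3:**
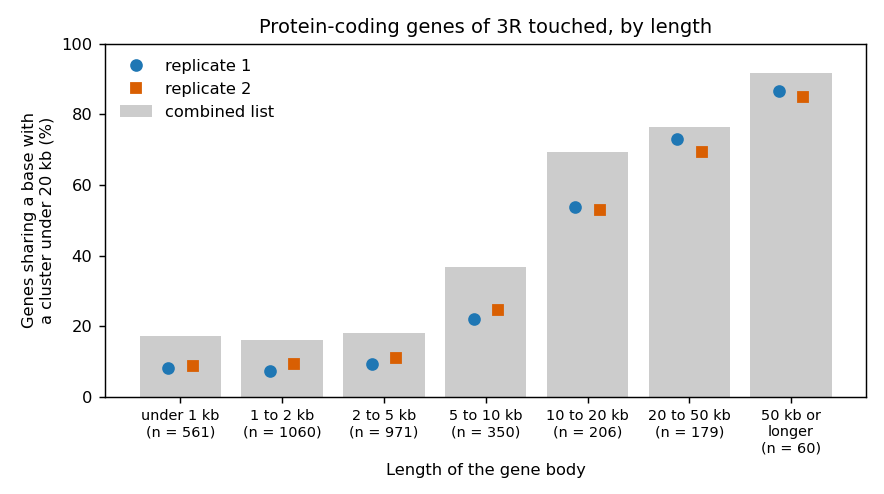
Percent of protein-coding genes of 3R with at least 1 base in a cluster under 20 kb (y axis) by class of gene length (x axis, kb), for the combined list and the 2 replicate lists. The combined list goes from 17.1% under 1 kb to 91.7% at 50 kb or longer.

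The genes with the most bases in short clusters were all of 60.592 kb or longer and held between 4 and 22 short clusters each. The ranking counts bases, so a high place requires a long gene and several clusters of under 20 kb. CG34353 (137.878 kb) held 22 clusters over 53.8% of its length in the combined list, and short clusters of replicate 1 took 26.7% and those of replicate 2 took 17.0%. Its last 2 along the arm, 3R:23709659-23725492 and 3R:23725647-23731273, reached to 292 bases from a gene end. In side-III (96.691 kb), of the sidestep family of axon guidance proteins, 10 clusters covered 63.9%, and the replicate lists gave 49.4% and 30.8%. The widest, 3R:1766706-1785177 of 18.472 kb with a score of 0.742, stopped 100 bases from a gene end. Hs6st (79.236 kb), which encodes a heparan sulfate sulfotransferase, held 13 clusters over 68.9% of the gene (51.7% and 38.1% in the replicates), and plum (65.14 kb), an immunoglobulin-domain gene of neuron remodelling, held 5 over 73.2% (65.5% and 61.1%). CG34347 (60.592 kb) was covered to 77.1% by 4 clusters (64.3% and 58.0%), of which 3R:27136941-27155788 began 62 bases inside the gene.

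In heph, pum, heca and CG34354, also of this rank, wider clusters took much of the body. heph (168.534 kb), which encodes a polypyrimidine tract-binding protein, was covered to 42.5% by short clusters and to 79.6% by clusters of any width. pum (171.34 kb), a translational repressor, had 33.4% and 78.6%. heca (94.451 kb), the headcase gene, had 50.5% and 93.0%, and CG34354 (93.647 kb) had 50.0% and 79.4%. Gfrl (106.131 kb), a GDNF receptor-like gene of the same rank, had no wider cluster. It held 15 short clusters over 44.6% of its body, against 28.0% and 15.9% in the replicate lists. The male courtship regulator fru (131.314 kb), named for its number of clusters and not of this rank, held 14 short clusters over 33.3%. Clusters of any width covered 50.7% of fru.

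**Figure D4:**
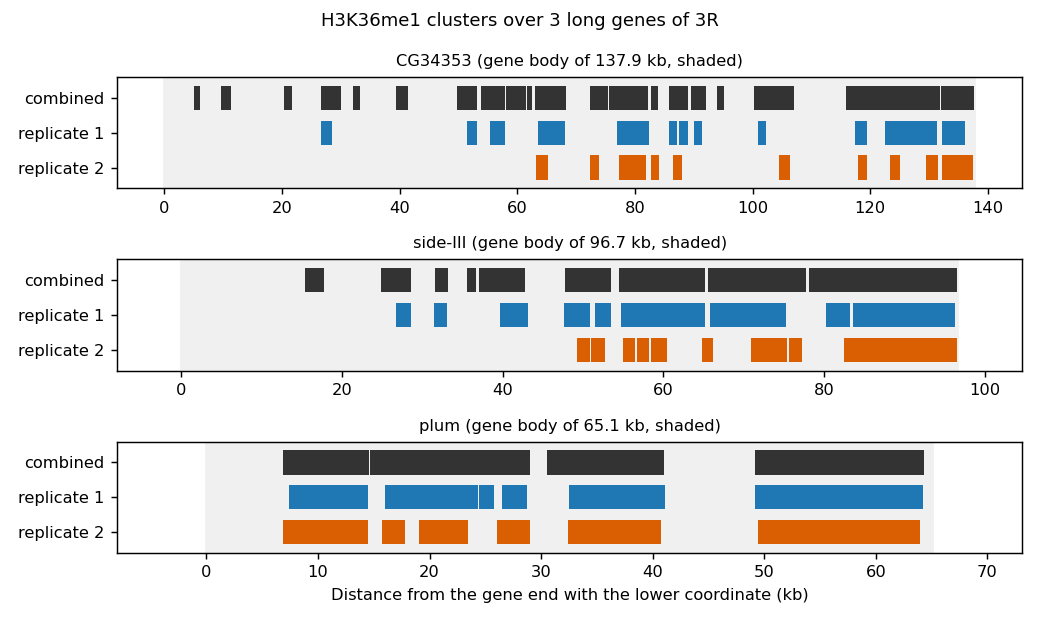
Clusters over CG34353, side-III and plum (x axis, distance in kb from the gene end with the lower coordinate, gene body shaded), with a row each for the combined list and the 2 replicate lists. In CG34353 and side-III the replicate clusters lie mostly toward the end with the higher coordinate, and in plum the 3 rows cover similar stretches.

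Markers of cell types were checked first, against clusters of any width, which touched 981 of 3387 protein-coding genes (29.0%). Of 8 neuron markers on the arm 7 were touched, one of them Syx1A, which lies inside eIF4EHP. Of 7 photoreceptor markers 3 were touched, and Rh3 and gl among them had no cluster in either replicate list. Both glia markers were touched, repo in the combined list alone and alrm in each list. The fat body markers Fst and to and the muscle markers Act88F and Mf had no cluster, and 3 of 9 testis markers, from a tissue outside the head, had one. Clusters of any width touched 17.7% of genes of 1 to 2 kb, 20.0% of 2 to 5 kb and 87.2% of 20 to 50 kb. The neuron markers ran from 4.164 to 63.262 kb, the photoreceptor markers from 1.391 to 6.551 kb and the testis markers from 0.413 to 1.319 kb. The marker counts were not corrected for length. A gene without a cluster is not thereby shown to be silent. Synapse, neurotransmission and guidance genes had 36 of 52 touched (69.2%) against 26.7% of all protein-coding genes, and at 5 kb or longer 36 of 48 against 464 of 795 (58.4%). ChAT, which makes acetylcholine, was covered to 76.5% (68.6% and 69.7% in the replicates), and VAChT, the vesicular acetylcholine transporter gene nested within it, to 77.6%. The complexin gene cpx had 66.1% (55.3% and 62.9%), the scaffold gene CASK 69.1% (54.6% and 54.5%), the calcium-activated potassium channel gene slo 55.8% (31.1% and 31.3%) and Ace, the acetylcholinesterase gene, 59.6% (56.6% and 39.6%). Oamb, an octopamine receptor gene, had 66.3% (64.5% and 47.2%). No short cluster touched Nlg1, Octbeta1R, GABA-B-R2 or nAChRbeta2, while Syx1A, a syntaxin gene nested in eIF4EHP, lay in a wider cluster and was covered to 88.1% and 90.3% in the replicate lists.

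Neuropeptide and neuropeptide receptor genes had 3 of 26 touched (11.5%, against 26.7% of all protein-coding genes), and 2 of 15 of them at 5 kb or longer (13.3%, against 58.4%). These were the receptor genes SIFaR, covered to 87.4% (69.0% and 69.7%), and TkR99D, to 61.1% (45.4% and 19.7%). Hug, which encodes the hugin peptide, had 25.3% and 0% in both replicates, and it lies inside Octbeta3R. The phototransduction and eye genes had 12 of 28 touched (42.9%, against 26.7%), and 9 in each replicate list. At 5 kb or longer 9 of 11 of them were touched (81.8%, against 58.4%). ro, a homeobox gene of the eye, was covered to 100% (99.8% and 100%), svp, a nuclear receptor gene of photoreceptor fate, to 79.6% (58.1% and 74.9%), and chp, the chaoptin gene, to 50.8% (31.2% and 45.8%). Rh3, a rhodopsin, was covered to 100% in the combined list and 0% in each replicate list, and no cluster touched ninaE, the main rhodopsin, or Rh6, trp, ort or boss. Of 8 clock genes 6 were touched against 26.7% of all protein-coding genes, also 6 in each replicate list, with cwo, a clock repressor, at 73.9% (71.6% and 73.2%). At 5 kb or longer 6 of 6 clock genes were touched, against 58.4%. Of the 6 glial genes 5 were touched (83.3%, against 26.7%), 4 of them in each replicate list, and alrm, an astrocyte gene, was covered to 100% in each list but lies inside Fur1. repo, the glial homeobox gene, had 38.1% and 0% in both replicates.

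Of 48 segmentation and patterning genes, 27 were touched (56.3%, against 26.7% of all protein-coding genes), with 19 in replicate 1 and 23 in replicate 2. At 5 kb or longer 15 of 21 were touched (71.4%), against 464 of 795 protein-coding genes (58.4%). The 27 touched genes include those of the Enhancer of split complex, which are short and are given apart below. neur, a ubiquitin ligase gene, was covered to 82.9% (79.2% and 79.6%) and Delta, which encodes a Notch ligand, to 83.3% (69.6% and 75.8%). The nuclear factor gene cnc had 78.2% (60.5% and 69.8%) and cic, which encodes a repressor, 70.4% (60.1% and 59.9%). The 21 genes without a short cluster included the hedgehog ligand gene hh (13.738 kb), the gap gene hb, the homeobox genes ems, slou and tin, and the Notch pathway repressor gene H. Of the 8 homeotic genes, all of 5 kb or longer, only Antp was touched, over 4.31% of 102.976 kb. That is 12.5% of them, against 58.4% of protein-coding genes of 5 kb or longer.

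**Figure D5:**
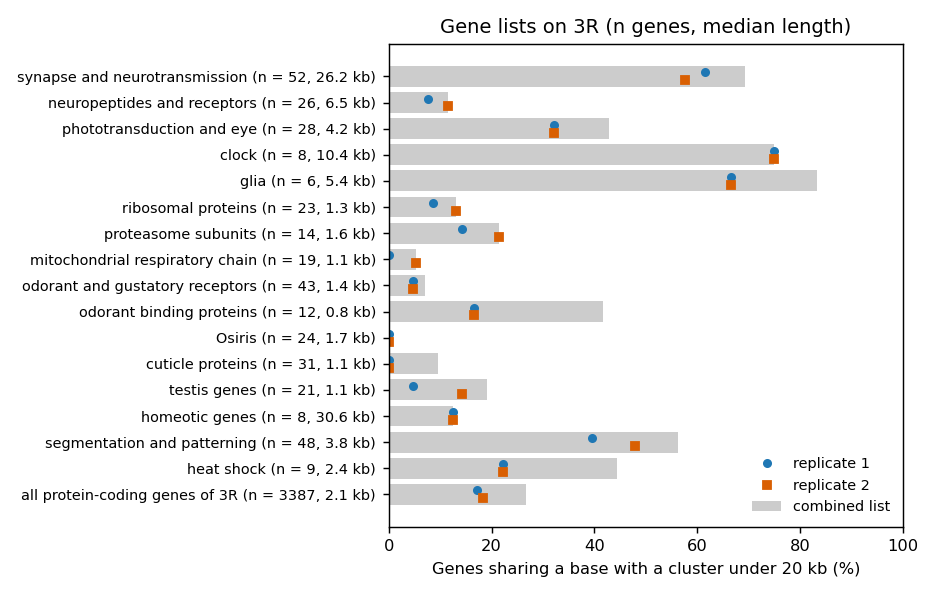
Percent of each group's genes with at least 1 base in a cluster under 20 kb (x axis), by group (y axis), with the combined list and the 2 replicate lists marked apart. Synapse, neurotransmission and guidance genes stand at 69.2% and neuropeptide and receptor genes at 11.5%, beside 26.7% of all protein-coding genes.

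Groups of short genes are read against 17.1% of genes under 1 kb and 16.1% of genes of 1 to 2 kb, beside 26.7% of all protein-coding genes. Ribosomal protein genes had 3 of 23 touched (13.0%) and proteasome subunits 3 of 14 (21.4%), both near the shares for their length. RpS19b was covered to 100% (100% and 90.5% in the replicates), RpL10Aa to 100% (0% and 100%) and RpS10a, which lies inside tau, to 100% in each list. Of the proteasome genes, Rpt3R was covered to 89.5% (84.7% and 85.7%), Rpn9 to 14.5% (12.1% and 13.1%) and Rpt2 to 4.03% (0% and 3.56%). Respiratory chain genes had 1 of 19 touched (5.26%), ND-49L, inside Fur1. Odorant, gustatory and ionotropic (Ir) receptors had 3 of 43 (6.98%), each nested in another gene, with Or98a inside CG34353. A further 4 receptor genes, Gr93a, Gr93b, Gr93c and Gr93d, lay in a wider cluster and were covered to 100% in each list. Odorant binding protein genes had 5 of 12 touched (41.7%), but 2 in each replicate list, where Obp99c was covered to 70.5% and 78.7% and Obp99d to 100% in both. None of the 24 Osiris genes was touched, and 3 of 31 cuticle protein genes were, none of them in a replicate list. Testis genes had 4 of 21 (19.0%), with 1 in replicate 1 and 3 in replicate 2, of which Mst87F was covered to 100% in each list. These lists were chosen with earlier results of these data known, so the counts describe the groups and test nothing. Lists also shared genes: rn was in the eye and patterning lists and pnt in the eye and glia lists. In the same way slo was in the synapse and clock lists, and cry in the eye and clock lists.

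The gap between neighbouring clusters had a median of 2942 bases over 1665 gaps, with quartiles of 811 and 10343 bases, and in the replicates it was 3430 ± 178 bases (SD, n = 2). Of these gaps, 468 (28.1%) were under 1 kb. The 761 gaps inside a single gene body (45.7%) had a median of 1130 bases, and the others 8502.5 bases, where a gap inside one gene cannot be longer than that gene. The longest was 3R:12457571-12814200 of 356.63 kb, which held 17 protein-coding genes, among them Ubx, abd-A and Abd-B of the bithorax complex. The third, 3R:2526985-2717139 of 190.155 kb, held pb, zen, bcd, Dfd, Scr and ftz of the Antennapedia complex, and the fourth, 3R:1949287-2133105 of 183.819 kb, held many of the Osiris genes and the neuropeptide F receptor gene NPFR. The 5 longest genes without a cluster in any list were Ubx (77.804 kb), MSAmiP (65.179 kb), RYa-R (60.956 kb), Mur89F (49.136 kb) and DIP-gamma (45.369 kb). In 1 Mb windows of the arm, the cover of short clusters ran from 11.1% in the window from 2 to 3 Mb to 29.8% in the window from 16 to 17 Mb, with 24 clusters in the former. Over these 27 windows the cover in the 2 replicate lists had a Pearson correlation of 0.843 and a Spearman correlation of 0.794, where the windows share the arm, the library and the caller.

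The 177 clusters outside genes had widths about a median of 1634 bases. The widest was 3R:25526981-25536168 of 9.188 kb, 4233 bases from dmrt99B and 4058 bases from Obp99d. The next, 3R:6488287-6496754 of 8.468 kb, lay between hth, a homeobox gene, and CG6465. The fifth, 3R:25032749-25040252 of 7.504 kb, lay between Cyt-c1L and eEF1gamma and had a score of 0.834. Each of the 5 widest was found in both replicate lists.

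Arms 2L, 3L and X gave medians of width near that of 3R, and 2R was not analysed here. Under 20 kb, 2L had 1290 clusters with a median width of 2262.5 bases, 3L had 1462 with 2167 bases and X had 1507 with 2193 bases. The median score was 0.418 on 3R, 0.425 on 2L, 0.424 on 3L and 0.541 on X, and the share in both replicate lists was 40.4%, 43.2%, 42.9% and 37.2% in the same order. No test was made between the arms, which come from the same libraries.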

How the data were processed

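H3K36me1 ChIP-seq of adult heads gave 3 cluster lists, a combined list and a list for each of 2 ChIP replicates; no list was used for the 2 inputs. Positions are on FlyBase release 5, per the file headers, and Bowtie 0.12.7 is named per the submitters' processing notes. The score of each cluster is the authors' deposited value, with no unit stated; no source used here names the cluster caller, and depth is unknown. Gene extents came from a RefSeq gene table on genome release 6 and were placed on release 5 by one constant difference for the arm. Of 4226 genes, 20 fell before the first base of the release 5 arm and were left out. Checked in 4 equal stretches of the arm, cover was lowest 100 to 300 bases outside gene ends. Overlap was 1 base or more. Named were the genes with most short-cluster bases, the genes of the 10 highest scores, the 5 longest empty genes, clusters at the width limit and list genes; lists were matched by symbol. The members and lists were chosen with earlier results of these data known. Python 3.11.15, numpy 2.4.6, pandas 2.3.3 and matplotlib 3.10.9 were used, and overlap counts were tested on simulated data. No test was run, since the design has 1 group.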

Additional observations from a re-analysis of the deposited data

How the results depend on the processing

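The share of bases in gene bodies (86.9%) was 90.1% to 90.2% in single replicate lists, 88.3% at or above the median score, 85.4% under 10 kb, 89.0% for clusters in both replicates and 84.6% for protein-coding genes. Bases near gene ends (12.4%) were 9.07% to 10.3%, 10.5%, 14.5% and 10.8% under the same first 4 changes. They were 6.89% within 250 bases, against 11.9% of the arm, and 21.3% within 1000 bases, against 32.7% of the arm. The median distance from a cluster's midpoint to the nearest gene end was 7608.5 bases over 838 clusters. Only clusters that touched 1 gene, of 5 kb or longer, and lay wholly inside it were measured. Clusters across gene ends or outside genes were thus left out. This distance was 8706 to 9238 bases in single lists and 9078.5 bases for genes of 10 kb or longer. Genes touched (26.5%) were 17.4% to 18.6% in single lists, 16.7% at or above the median score, 23.7% under 10 kb and 15.8% for clusters in both replicates. They were 24.7% with at least 500 bases, or the whole of a shorter gene, shared. The median gap (2942 bases) was 3304 to 3556 bases, 6437 bases at or above the median score, 7680 bases for clusters in both replicates and 5836 bases when clusters up to 1 kb apart were joined. Support by both replicates (40.4%) was 50.1% to 51.7% against a single list, 73.6% at or above the median score, 34.9% under 10 kb and 33.2% with at least 50% of the cluster covered. The causes were not tested. Gene-end results and the restriction to both replicates were added after the data were seen. Bases in promoters, bases in first introns and position along genes were not run, because the gene table has no strand or exons. No paired analysis was possible because the ChIP replicates form 1 group and no input list was used.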

Other observations

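The 3 highest scores belonged to narrow clusters in neither replicate list. These were 3R:16095571-16096629 (1059 bases, score 2.42) in cic, 3R:1276063-1277299 (1237 bases, 1.84) in CG14669 and 3R:97719-99703 (1985 bases, 1.67) in flip. The next 7 were in both lists: 3R:877912-894801 (16.89 kb, 1.65) touched only lncRNA:CR45588, 3R:898210-912691 (14.482 kb, 1.60) corto, 3R:27231015-27239827 (8.813 kb, 1.57) Gprk2 and PNPase, 3R:9795922-9805525 (9.604 kb, 1.49) rdx, 3R:7462687-7475271 (12.585 kb, 1.48) the kinase gene Csk, 3R:26617807-26631728 (13.922 kb, 1.44) the kinase gene wts and 3R:25884101-25893510 (9.41 kb, 1.44) sima.

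In the Enhancer of split complex, a row of short Notch target genes, 8 of 11 listed genes were touched. The share was 26.7% over all protein-coding genes, 17.1% under 1 kb and 16.1% at 1 to 2 kb. The 11 genes are also counted in the segmentation and patterning list. Neighbours can share a cluster: E(spl)mdelta-HLH and E(spl)mgamma-HLH lay in 3R:21822441-21826767, and 3R:21849612-21856416 touched E(spl)m4-BFM and E(spl)m5-HLH. E(spl)m5-HLH was covered to 100% in each list and E(spl)m7-HLH to 100% in the combined list and 0% in both replicates. E(spl)mbeta-HLH and E(spl)m4-BFM had 0% in replicate 1. Of 9 heat shock genes 4 were touched (44.4%), with 2 in each replicate list, against 18.0% of genes of 2 to 5 kb. Hsp70Aa was covered to 81.6% (69.4% and 77.5% in the replicates) and Hsp70Ba to 89.2% (0% in both). Reads of these near-identical copies are uncertain. Of the methyltransferase gene NSD, the demethylase gene Kdm2 and MRG15, which encodes a chromodomain protein that binds the methylated lysine, Kdm2 alone was touched, over 11.3% (0% in both replicates). That is 1 of 3 (33.3%), near 26.7% of all protein-coding genes. Kdm2 has 10.751 kb, and 69.4% of genes of 10 to 20 kb were touched. Among noncoding genes 129 of 424 lncRNA genes (30.4%) and 2 of 48 snoRNA genes (4.17%) were touched, against 26.5% of all genes of the arm.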
